A study of Homo sapiens with 18 samples.

Results

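The 9 genes SNAI2, TWIST1, PRRX1, RUNX1, MEOX2, SIX4, SOX9, FOSL1 and MEF2D encode transcription factors of mesenchymal and neural crest cells, and are 9 of the 63677 gene identifiers measured. They were chosen by symbol and matched to the Ensembl identifier of each row. Poly(A) RNA was sequenced from 18 bulk xenograft tumours grown from SKNAS, LAN-1 or KELLY, human cell lines of neuroblastoma, each with an Hmx1 arm and a control arm of 3 libraries. Each line is a single cell line grown as a tumour in mice. The labels name the arms Hmx1 and Control only, give the treatment of all 18 as none, and record no promoter, allele, mouse strain or age. The genotype MYCN-amp is given for 2 of the 3 KELLY control libraries and for no other library. MYCN averaged 787 and 867 TPM in LAN-1 Hmx1 and control, 1472 and 1424 TPM in KELLY Hmx1 and control, and 0.0502 and 0.0469 TPM in SKNAS Hmx1 and control tumours. Differences between SKNAS and another line thus coincide with one of MYCN, whose part was not tested. Whether Hmx1 was raised or lowered, from which species its sequence came, and how libraries map to animals are not stated. The p-values therefore reflect library-to-library variation, part or all of which may be technical.

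Neuroblastoma cells arise from the sympathetic neural crest and are described in a noradrenergic and a mesenchymal state, each held by its own set of transcription factors. SNAI2 is a zinc finger repressor and TWIST1 a basic helix-loop-helix factor, and both drive the change from epithelial to mesenchymal behaviour and act in the neural crest. PRRX1, MEOX2 and SIX4 are homeobox factors of mesenchyme and muscle precursors, RUNX1 is a runt domain factor of blood and mesenchymal cells, SOX9 an HMG-box factor of neural crest and cartilage, FOSL1 an AP-1 subunit, and MEF2D a MADS-box factor of muscle and neurons.

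Sequences are shown for the 3 genes with a window taken here whose level differed between the SKNAS arms. The starts of 2 genes that fell and 1 that rose can thus be read side by side. RefSeq windows on GRCh38.p14 were taken for 5 of the 9 genes, and SNAI2 was left out by name whether or not it had a window. Each run below is the 250 bases before the annotated start on the minus strand. SIX4 lies at chr14:60724352-60724601, RUNX1 at chr21:34888700-34888949 and MEOX2 at chr7:15686684-15686933. Capitals mark E-boxes (CANNTG, a wide pattern that includes the site letters of SNAI2 and TWIST1), CCAAT boxes (CCAAT) and TATA boxes (TATAA), each searched on both strands.
SIX4: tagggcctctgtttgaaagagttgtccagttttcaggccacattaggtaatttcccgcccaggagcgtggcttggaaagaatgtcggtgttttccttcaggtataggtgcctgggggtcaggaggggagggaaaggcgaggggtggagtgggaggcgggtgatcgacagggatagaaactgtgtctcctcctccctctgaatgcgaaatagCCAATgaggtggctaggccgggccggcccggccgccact
RUNX1: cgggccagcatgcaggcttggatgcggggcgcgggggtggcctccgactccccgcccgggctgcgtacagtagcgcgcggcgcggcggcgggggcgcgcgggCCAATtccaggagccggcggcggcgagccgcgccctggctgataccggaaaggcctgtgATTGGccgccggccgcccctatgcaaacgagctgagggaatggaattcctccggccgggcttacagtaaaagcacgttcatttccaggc
MEOX2: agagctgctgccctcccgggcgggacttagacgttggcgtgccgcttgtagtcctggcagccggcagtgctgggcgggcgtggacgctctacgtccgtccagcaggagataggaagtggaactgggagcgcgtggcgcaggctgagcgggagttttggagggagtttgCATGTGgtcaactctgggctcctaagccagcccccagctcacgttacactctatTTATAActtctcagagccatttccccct
The SIX4 window held 1 CCAAT box and the RUNX1 window 2, while the MEOX2 window held 1 E-box and TATAA on both strands at the same place. The E-box of MEOX2 overlaps a RUNX core (TGTGGT), 1 match in that window. Of all 35116 windows of this length, 61.8% held an E-box, 32.0% a CCAAT box, 18.9% a TATA box and 10.98% a RUNX core. Each run is 1 annotated start of its gene, and use of that start was not measured. The bases just after the window were found in a GENCODE transcript of the gene for MEOX2, but not for SIX4 or RUNX1. These matches describe letters only, and RUNX1 and SIX4 gave no match to an E-box or RUNX core in these windows. The narrower E-box of the SNAI type (CAGGTG) had no match in any window shown, while 17.5% of all windows held it.

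Levels are given in TPM, a value per length scaled to a fixed total, so genes can be set against each other. The count of reads behind a library is unknown. Mitochondrial transcripts took 4.47% to 33.8% of a library. GATA3, a factor of sympathetic neuroblasts, averaged from 5.85 to 110.5 TPM in the 6 groups, while SOX10, the Schwann cell factor, was listed at 0 in 5 groups. HMX1, which names the arm, had 1.24, 0.193 and 0.411 TPM in SKNAS Hmx1 libraries and was listed at 0 in the 3 SKNAS control libraries. It averaged 13.2 ± 2.89 TPM in LAN-1 Hmx1 and 11.6 ± 0.413 TPM in LAN-1 control tumours, and 5.50 ± 0.861 TPM in KELLY Hmx1 and 5.70 ± 1.91 TPM in KELLY control tumours (SD, n = 3 each). On the first principal component of its line, LAN-1 Hmx1 library 1 (-17.95) lay among the LAN-1 control libraries (-21.43 to -7.89), away from the other LAN-1 Hmx1 libraries (38.35 and 28.08). KELLY control library 1, with the mitochondrial share of 33.8%, lay at 57.4, against -49.4 and -8.71 for the other KELLY control libraries.

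TWIST1 was the most abundant of the 9 genes in every group, with 47.3% to 57.3% of their summed TPM. The 9 genes summed to 91.8 TPM on average in SKNAS Hmx1 and 126 TPM in SKNAS control tumours, 68.2 TPM in LAN-1 Hmx1 and 80.3 TPM in LAN-1 control tumours, and 104 TPM in KELLY Hmx1 and 97.2 TPM in KELLY control tumours. SNAI2, RUNX1 and MEOX2 reached 1 TPM in SKNAS libraries only. FOSL1 reached 1 TPM in 1 SKNAS Hmx1 library and was listed at 0 in all 6 KELLY libraries.

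**Figure D1:**
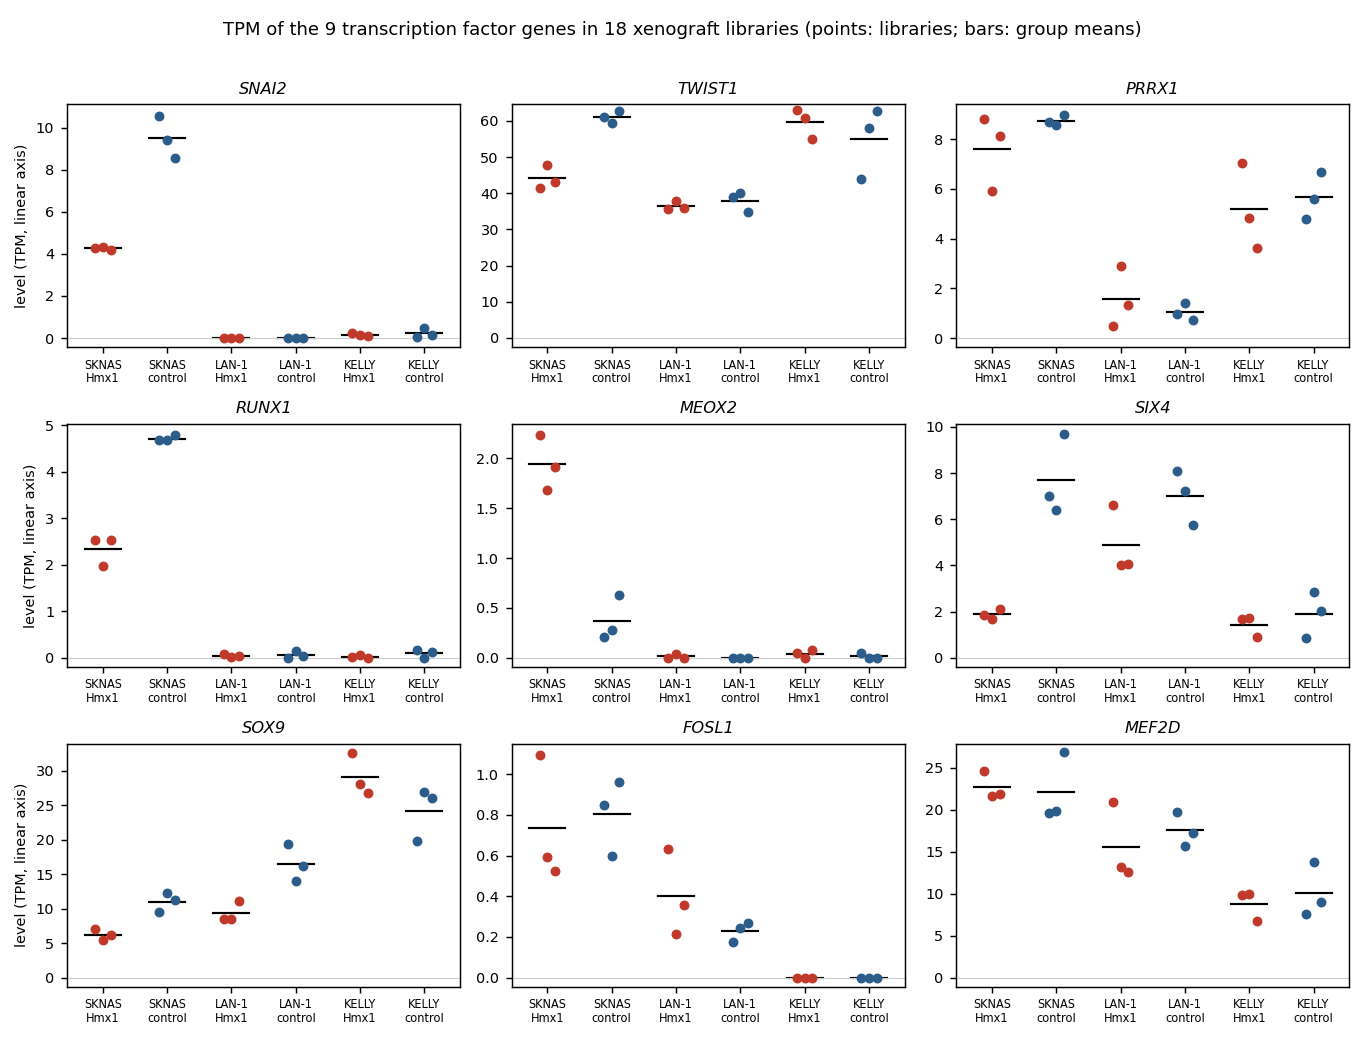
TPM of each of the 9 genes on a linear axis, with points for the 3 libraries of each group and bars for group means, Hmx1 left of control within each line. SIX4 lies at 1.67 to 2.13 TPM in SKNAS Hmx1 libraries and at 6.41 to 9.67 TPM in SKNAS control libraries, and SOX9 is highest in KELLY.

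In SKNAS tumours 5 of the 9 genes fell in the Hmx1 arm (SNAI2, TWIST1, RUNX1, SIX4 and SOX9), MEOX2 rose, PRRX1 and MEF2D did not pass the test, and FOSL1 was too low to be tested. The test was limma on log2(TPM + 1) over the 18650 genes with at least 1 TPM in at least 3 libraries, called at an adjusted p under 0.05 by the Benjamini-Hochberg method. Of all genes tested, 8.76% were called, 4.96% higher and 3.8% lower. The libraries of the arms did not overlap for the same 6 genes, as for 30.9% of all genes tested. MEOX2 reached the minimum through the 3 SKNAS Hmx1 libraries alone, so that it had to differ, and SNAI2 and RUNX1 reached it through the 6 SKNAS libraries alone. The median change over all genes was 0.00 on the log2 scale.

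SIX4, a homeobox factor that works with EYA coactivators, showed the largest fall among these genes. It had 1.87, 1.67 and 2.13 TPM in SKNAS Hmx1 libraries, against 7.02, 6.41 and 9.67 TPM in SKNAS control libraries. All 3 Hmx1 libraries lay below the lowest control library. The change was -1.58 ± 0.25 on the log2(TPM + 1) scale (SE), with an adjusted p of 0.000389 in limma, and the call held in all 27 alternatives.

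SNAI2 had 4.27, 4.33 and 4.19 TPM in SKNAS Hmx1 libraries, against 10.6, 9.42 and 8.59 TPM in SKNAS control libraries. The arms were apart, with little spread among the Hmx1 libraries. The log2 change was -0.997 ± 0.14 (SE; limma adjusted p = 0.000115). With a pseudocount of 0.1 in place of 1 the change was -1.14 and its adjusted p 0.0993. With SKNAS fitted alone, so that lines at 0 lend no spread, the adjusted p was 0.00959 for SNAI2 and 0.0184 for RUNX1.

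RUNX1 had 2.53, 1.97 and 2.53 TPM in SKNAS Hmx1 libraries, against 4.67, 4.68 and 4.78 TPM in SKNAS control libraries. The control libraries lay close together and above every Hmx1 library. The log2 change was -0.78 ± 0.12 (SE; limma adjusted p = 0.000348), and with a pseudocount of 0.1 it was -0.98 with an adjusted p of 0.194. The listed RUNX1 locus spans 1216868 bp, and its TPM was 9.04 times its deposited coverage in SKNAS Hmx1 and 11.3 times in SKNAS control tumours. That ratio was between 0.431 and 0.668 for SNAI2, MEOX2, SIX4, SOX9 and FOSL1 wherever listed above 0. It was 0.963 to 1.18 for TWIST1, 1.435 to 1.756 for MEF2D and 2.33 to 6.31 for PRRX1. The PRRX1 ratio was 2.5 in SKNAS control and 6.31 in LAN-1 control tumours. On scaled coverage the RUNX1 change was -0.19 ± 0.04 (SE; limma adjusted p = 0.00399).

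SOX9 had 7.09, 5.37 and 6.23 TPM in SKNAS Hmx1 libraries, against 9.43, 12.2 and 11.2 TPM in SKNAS control libraries. The highest Hmx1 library stood below the lowest control library. The log2 change was -0.72 ± 0.18 (SE; limma adjusted p = 0.0147). Without SKNAS control library 2 the adjusted p was 0.0719, and without SKNAS Hmx1 library 2 it was 0.0787.

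TWIST1 had 41.5, 47.8 and 43.1 TPM in SKNAS Hmx1 libraries, against 61.0, 59.3 and 62.9 TPM in SKNAS control libraries. The arms did not overlap. The log2 change was -0.46 ± 0.14 (SE; limma adjusted p = 0.0492), and 16 of 27 alternatives ended the call, among them leaving out any 1 SKNAS library.

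MEOX2, a homeobox factor of somites and vessels linked to growth arrest, had 2.23, 1.68 and 1.92 TPM in SKNAS Hmx1 libraries, against 0.213, 0.278 and 0.631 TPM in SKNAS control libraries. Every Hmx1 library lay above every control library, at low levels throughout. The log2 change was 1.11 ± 0.13 (SE; limma adjusted p = 8.48e-06).

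Of the genes that were not called, PRRX1 averaged 7.61 ± 1.51 TPM in SKNAS Hmx1 and 8.74 ± 0.202 TPM in SKNAS control tumours (SD, n = 3 each), with a log2 change of -0.19 ± 0.28 (SE). MEF2D averaged 22.7 ± 1.67 TPM in SKNAS Hmx1 and 22.1 ± 4.07 TPM in SKNAS control tumours (SD, n = 3 each), with a log2 change of 0.05 ± 0.23 (SE). FOSL1 had 1.09, 0.593 and 0.525 TPM in SKNAS Hmx1 libraries, against 0.848, 0.597 and 0.964 TPM in SKNAS control libraries. The arms overlapped for these 3 genes.

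**Figure D2:**
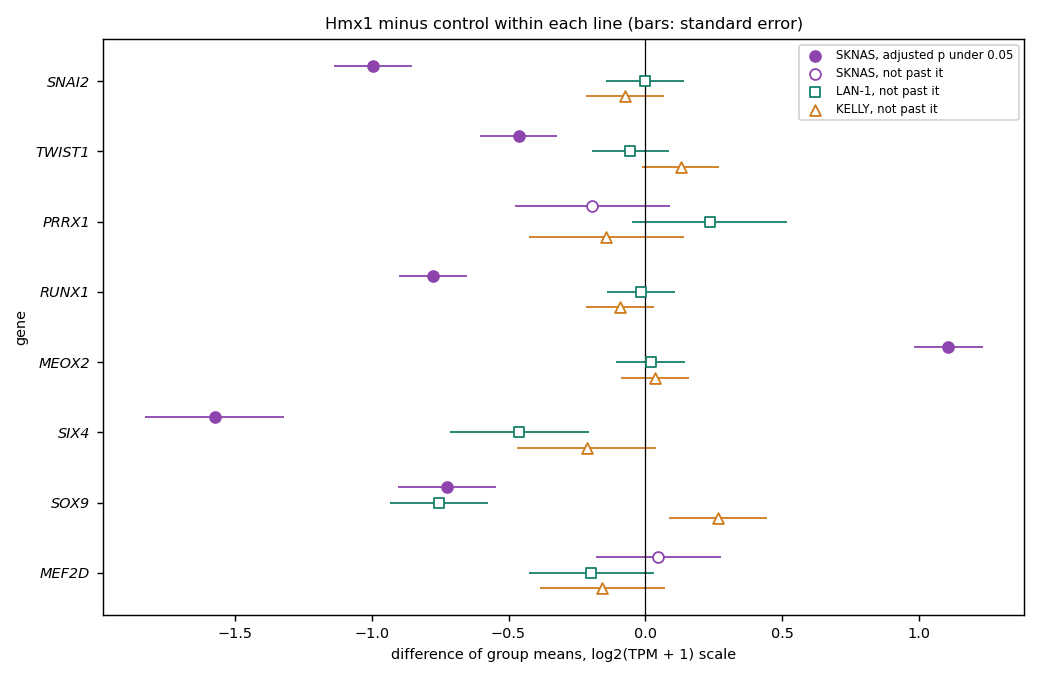
Difference between Hmx1 and control group means on the log2(TPM + 1) scale for the 8 genes tested, with bars for the standard error and filled symbols for an adjusted p under 0.05. The 6 filled symbols all belong to SKNAS, from -1.58 for SIX4 to 1.11 for MEOX2.

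In LAN-1 tumours none of the 8 genes tested passed the threshold, where limma called 0.45% of all genes. SOX9 came nearest, and was the 1 gene of the 8 with an unadjusted p under 0.05. It had 8.41, 8.52 and 11.1 TPM in LAN-1 Hmx1 libraries, against 19.3, 13.9 and 16.1 TPM in LAN-1 control libraries. The arms did not overlap for SOX9, as for 15.8% of all genes. Its log2 change was -0.75 ± 0.18 (SE; limma adjusted p = 0.0888). The adjusted p was 0.173 without LAN-1 Hmx1 library 1, the one that lay among the controls, and 0.0344 without KELLY control library 1, which enters the pooled spread. On scaled coverage it was 0.0496.

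SIX4 had 6.62, 4.03 and 4.04 TPM in LAN-1 Hmx1 libraries, against 8.07, 7.20 and 5.77 TPM in LAN-1 control libraries. LAN-1 Hmx1 library 1 was the Hmx1 library that overlapped the controls. The log2 change was -0.46 ± 0.25 (SE; limma adjusted p = 0.803), and without that library it was -0.66 ± 0.27 (SE; limma adjusted p = 0.362). TWIST1 averaged 36.4 ± 1.195 TPM in LAN-1 Hmx1 and 37.9 ± 2.84 TPM in LAN-1 control tumours, and MEF2D 15.5 ± 4.65 and 17.6 ± 2.02 TPM in the same arms (SD, n = 3 each). PRRX1 had 0.499, 2.89 and 1.32 TPM in LAN-1 Hmx1 libraries, against 0.969, 1.42 and 0.743 TPM in LAN-1 control libraries. SNAI2 was listed at 0 in all 6 LAN-1 libraries, and MEOX2 in 5 of them. RUNX1 stayed at or below 0.143 TPM in LAN-1 libraries, and FOSL1 at or below 0.631 TPM.

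In KELLY tumours none of the 8 genes passed the threshold in limma either, where 0.0912% of all genes were called, and 0 had an unadjusted p under 0.05. The KELLY arms overlapped for all 9 genes, while 6.67% of all genes tested had arms apart. SOX9 had 32.5, 28.02 and 26.8 TPM in KELLY Hmx1 libraries, against 19.7, 26.8 and 26.0 TPM in KELLY control libraries. The low control value was that of KELLY control library 1. The log2 change of SOX9 was 0.26 ± 0.18 (SE; limma adjusted p = 0.899), and 0.13 ± 0.17 without that library. TWIST1 had 63.2, 60.7 and 55.1 TPM in KELLY Hmx1 libraries, against 44.0, 58.1 and 62.8 TPM in KELLY control libraries. SIX4 averaged 1.43 ± 0.459 TPM in KELLY Hmx1 and 1.90 ± 0.987 TPM in KELLY control tumours (SD, n = 3 each). Of the remaining genes, PRRX1 averaged 5.17 TPM and MEF2D 8.81 TPM in KELLY Hmx1 tumours, against 5.69 and 10.1 TPM in KELLY control tumours. SNAI2 was at most 0.254 TPM in KELLY Hmx1 and 0.495 TPM in KELLY control libraries. RUNX1 was at most 0.0594 TPM in KELLY Hmx1 and 0.167 TPM in KELLY control libraries, and MEOX2 at most 0.0829 and 0.0532 TPM in those arms. Without KELLY control library 1 the adjusted p of the 8 genes lay between 0.402 and 0.99.

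For the mean arm difference over the 3 lines, limma called MEOX2 (tested only through SKNAS Hmx1 libraries) higher and SNAI2, RUNX1, SIX4 and SOX9 lower, where 3.54% of all genes were called, 1.97% higher and 1.57% lower. The RUNX1 call was lost in 9 of 26 alternatives and that of SOX9 in 12 of 26, most of them with 1 library left out. Relabelling the arms within lines in all 8000 ways gave an exact two-sided p of 0.00675 for SIX4, 0.014 for RUNX1, 0.02 for MEOX2, 0.0232 for SOX9 and 0.045 for SNAI2. The mean log2 differences behind these were -0.75 for SIX4, -0.29 for RUNX1, 0.39 for MEOX2, -0.40 for SOX9 and -0.36 for SNAI2. Those of MEOX2, SNAI2 and RUNX1 came from SKNAS, since MEOX2 differed by 1.11 in SKNAS, 0.02 in LAN-1 and 0.04 in KELLY, SNAI2 by -0.997, 0.00 and -0.07, and RUNX1 by -0.78, -0.02 and -0.09. SKNAS alone has too few relabellings for exact p-values as low as those of these 3 genes. Their p-values therefore also rest on the order of levels near 0 TPM in the other lines, and show no arm difference shared by the lines. The exact permutation p was 0.157 for TWIST1, 0.437 for MEF2D, 0.6 for FOSL1 and 0.846 for PRRX1. None of the exact p-values was adjusted over the 9 genes. Over the 3 lines SIX4 was lower in the Hmx1 arm on average in each, by -1.58 in SKNAS, -0.46 in LAN-1 and -0.21 in KELLY. The SOX9 differences were -0.72, -0.75 and 0.26 in the same lines.

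The arm difference itself was compared between lines. Set against LAN-1, the SKNAS difference was further down for SNAI2 (-0.997 ± 0.20, limma adjusted p = 0.00526) and RUNX1 (-0.76 ± 0.18, limma adjusted p = 0.0140) and further up for MEOX2 (1.09 ± 0.18, limma adjusted p = 0.000844), with 4.99% of all genes called, 2.98% up and 2.01% down. Set against KELLY, 5 genes were called and 4.85% of all genes, 2.5% up and 2.35% down. SIX4 differed by -1.36 ± 0.36 (SE; limma adjusted p = 0.0358) and SOX9 by -0.99 ± 0.25 (SE; limma adjusted p = 0.0304), beside SNAI2 by -0.92, RUNX1 by -0.68 and MEOX2 by 1.07. SNAI2 and RUNX1 stood near 0 in LAN-1 and KELLY control tumours, so a fall of that size could not have been measured there. MEOX2 was tested only because the 3 SKNAS Hmx1 libraries reached the minimum, so the direction of both of its differences was set by that minimum and supports nothing. Between LAN-1 and KELLY none of the 8 genes was called, with 0.209% of all genes called. At an unadjusted p under 0.05 stood 1 gene, SOX9, which differed by -1.02 ± 0.25 (SE; limma adjusted p = 0.172).

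Sums of several marker lists of other cell types differed between the SKNAS arms, and so did that of the 5 neuroblastoma markers. The neuroblastoma sum was 704 to 746 TPM in SKNAS Hmx1 and 810 to 942 TPM in SKNAS control libraries, with 0 of the 5 called higher and 1 lower. Counts of called markers in SKNAS are to be read beside the 8.76% of all genes called there. The summed TPM of 8 fibroblast markers was 804 to 907 in SKNAS Hmx1 libraries and 1141 to 1347 in SKNAS control libraries, and 3 of the 8 fell (PDGFRA, LUM and DPT) while none rose. COL1A1 averaged 211 and 345 TPM and COL3A1 391.6 and 602.4 TPM in SKNAS Hmx1 and control tumours, most of that sum, and neither was called. DCN lay the other way, at 93.9 to 112.4 TPM in SKNAS Hmx1 and 50.9 to 90.8 TPM in SKNAS control libraries, as did PDGFRB at 34.4 to 45.1 and 20.3 to 33.2 TPM, with arms apart for both and neither called. The same sum was 14.9 to 53.2 in LAN-1 Hmx1, 20.9 to 31.8 in LAN-1 control, 51.0 to 116.6 in KELLY Hmx1 and 85.1 to 146 in KELLY control libraries. No fibroblast marker was listed at 0 throughout the SKNAS groups. The 5 macrophage and leukocyte markers summed to 190 to 287 TPM in SKNAS Hmx1 and 77.1 to 105 TPM in SKNAS control libraries, of which PTPRC alone averaged 231 TPM in Hmx1 and 91.9 TPM in control tumours, while CSF1R averaged 0.274 and 0.0386 TPM and AIF1 was listed at 0 in SKNAS control tumours. PTPRC rose, but CD14, the monocyte marker, fell, at 0.523 TPM in SKNAS Hmx1 and 1.335 TPM in SKNAS control tumours. CD14 reached the minimum of the test through the SKNAS control libraries alone, so that it had to differ, and its fall supports nothing. In LAN-1 and KELLY that sum was at most 1.604 TPM. PECAM1, the defining endothelial marker, was listed at 0 in all 6 groups, and the 5 endothelial markers summed to 6.05 to 8.85 TPM in SKNAS Hmx1 and 3.55 to 4.70 TPM in SKNAS control libraries. Of the 4 tested, 1 was called higher and 0 lower. TEK averaged 3.22 TPM in SKNAS Hmx1 and 1.07 TPM in SKNAS control tumours, and CDH5 3.47 and 2.52 TPM. TEK lay at 0.959 to 1.27 TPM in SKNAS control libraries, about the minimum, so its direction was largely set by that minimum. The 7 skeletal muscle markers summed to 4.21 to 6.83 TPM in SKNAS Hmx1 and 9.585 to 11.6 TPM in SKNAS control libraries, and 1 of the 4 tested fell (TNNI2, at 2.06 TPM in Hmx1 and 5.85 TPM in control tumours). The part of all these markers in the changes of SNAI2, TWIST1, RUNX1, SIX4, SOX9 and MEOX2 was not tested. In bulk tumours a change in the number of cells of a type, in RNA per cell, or in expression of a marker by the tumour cells cannot be told apart.

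**Figure D3:**
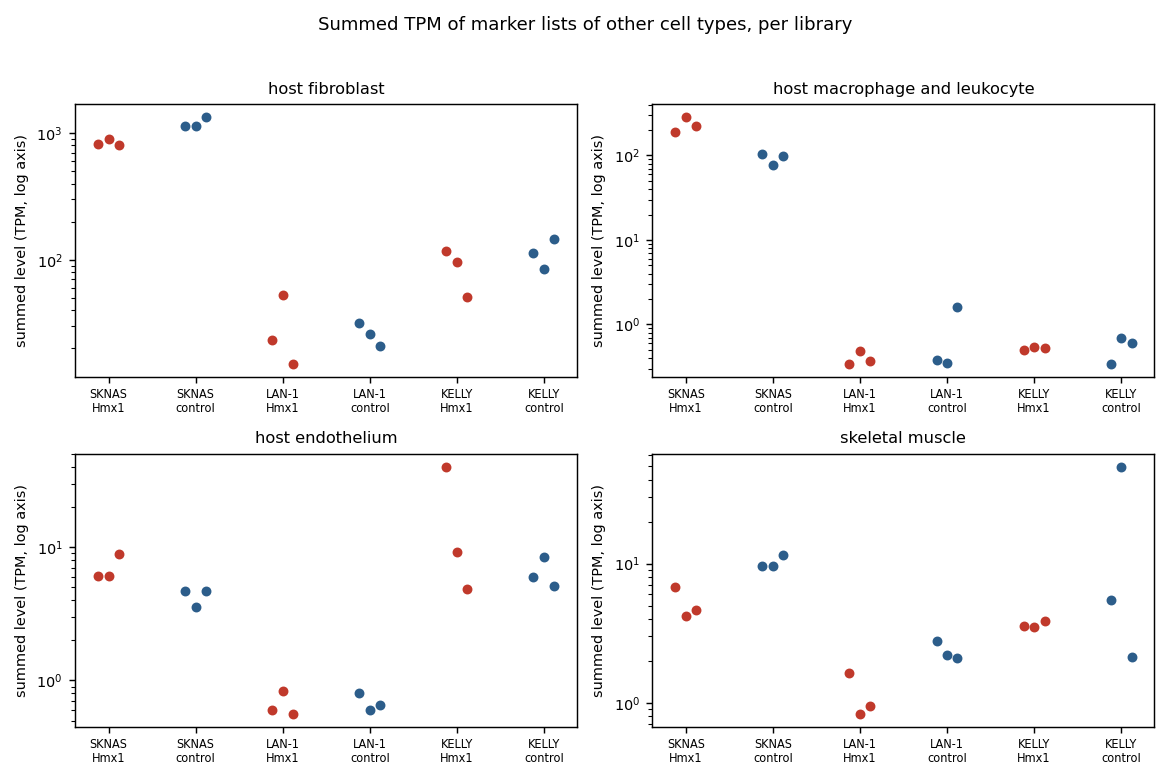
Summed TPM of marker lists of other cell types in each library, on a log axis, with Hmx1 left of control within each line. The fibroblast sum is 804 to 907 TPM in SKNAS Hmx1 and 1141 to 1347 TPM in SKNAS control libraries, and 1 KELLY control library stands out for muscle markers at 49.8 TPM.

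Between control tumours most of the 9 genes differed by line, as did most of all genes tested. SKNAS controls held the most SNAI2, RUNX1 and MEOX2, KELLY controls the most SOX9, and LAN-1 controls the least TWIST1 and PRRX1. Against LAN-1, SKNAS controls were higher for SNAI2, TWIST1, PRRX1, RUNX1 and MEOX2 and lower for SOX9, 6 of 8 genes, with 52% of all genes called by limma, 31.5% higher and 20.5% lower. Against KELLY they were higher for SNAI2, RUNX1, MEOX2, SIX4 and MEF2D and lower for SOX9, again 6 of 8, with 65.7% of all genes called, 49.5% higher and 16.1% lower. SNAI2, RUNX1 and MEOX2 were tested only because SKNAS libraries reached the minimum, for MEOX2 those of the Hmx1 arm alone. The direction of SNAI2 and RUNX1 was set by that minimum, so in both counts of higher genes these calls, and that of MEOX2, support nothing. LAN-1 controls were higher than KELLY controls for SIX4 and MEF2D and lower for TWIST1, PRRX1 and SOX9, 5 of 8, with 51.8% of all genes called, 38.2% higher and 13.6% lower. Libraries did not overlap for 7 of the 9 genes between SKNAS and LAN-1 controls, where this held for 66.5% of all genes tested, for 8 between SKNAS and KELLY (63.6%) and for 7 between LAN-1 and KELLY (55.8%). Each of these counts includes FOSL1, which was not tested and so lies outside the genes behind the shares. Both counts with SKNAS also include SNAI2, RUNX1 and MEOX2, to which the same limit of the minimum applies. The medians of all genes were 0.18, 0.54 and 0.34 on the log2 scale in these comparisons and ranged from 0.00 to 0.68 over the alternatives.

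PRRX1 averaged 8.74 ± 0.202 TPM in SKNAS control, 1.04 ± 0.343 TPM in LAN-1 control and 5.69 ± 0.958 TPM in KELLY control tumours (SD, n = 3 each). LAN-1 control libraries lay below all others, with a log2 difference of 2.27 ± 0.28 for SKNAS minus LAN-1 (SE; limma adjusted p = 2.86e-06) and -1.71 ± 0.28 for LAN-1 minus KELLY (SE; limma adjusted p = 8.29e-05). SKNAS minus KELLY was 0.55 ± 0.28 for PRRX1 (SE; limma adjusted p = 0.0953) and -0.07 under quantile normalization, neither called, while on coverage it was 0.75 (limma adjusted p = 0.000515). SNAI2 averaged 9.53 ± 1.001 TPM in SKNAS control and 0.235 ± 0.229 TPM in KELLY control tumours while LAN-1 control libraries held it at 0. RUNX1 averaged 4.71 ± 0.0587, 0.0580 ± 0.0753 and 0.0983 ± 0.0873 TPM in SKNAS, LAN-1 and KELLY control tumours (SD, n = 3 each). For both, the filter had already fixed that SKNAS was the higher line.

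SOX9 averaged 10.9 ± 1.40 TPM in SKNAS control, 16.5 ± 2.71 TPM in LAN-1 control and 24.2 ± 3.88 TPM in KELLY control tumours (SD, n = 3 each). The control libraries of the 3 lines did not overlap, in the order KELLY, LAN-1, SKNAS. The log2 difference was -1.07 ± 0.18 for SKNAS minus KELLY (SE; limma adjusted p = 5.92e-05), -0.54 ± 0.18 for SKNAS minus LAN-1 (SE; limma adjusted p = 0.0178) and -0.53 ± 0.18 for LAN-1 minus KELLY (SE; limma adjusted p = 0.0209). SKNAS minus LAN-1 lost its call without mitochondrial genes and without SKNAS or LAN-1 control library 1. LAN-1 minus KELLY lost it with groups fitted alone and without control library 2 or 3 of either line.

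SIX4 averaged 7.70 ± 1.74 TPM in SKNAS control, 7.01 ± 1.16 TPM in LAN-1 control and 1.90 ± 0.987 TPM in KELLY control tumours (SD, n = 3 each). SKNAS and LAN-1 overlapped, and both lay above KELLY, by 1.63 ± 0.25 (SE; limma adjusted p = 2.86e-05) and 1.51 ± 0.25 (SE; limma adjusted p = 9.97e-05) on the log2 scale. MEF2D averaged 22.1, 17.6 and 10.1 TPM in SKNAS, LAN-1 and KELLY control tumours, and its libraries overlapped between SKNAS and LAN-1. The MEF2D difference of LAN-1 minus KELLY (0.78 ± 0.23) lost its call in 4 of 27 alternatives, among them the median-ratio and quantile scalings, under which it was 0.34 and 0.33. MEOX2 was at most 0.631 TPM in any control library, and its SKNAS minus KELLY call was lost under quantile normalization. TWIST1 averaged 61.1 TPM in SKNAS, 37.9 TPM in LAN-1 and 55.0 TPM in KELLY control tumours. The SKNAS minus KELLY difference of TWIST1 was 0.16 ± 0.14 on the log2 scale (SE; limma adjusted p = 0.313), and it turned to -0.47 and -0.43 under the median-ratio and quantile scalings.

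**Figure D4:**
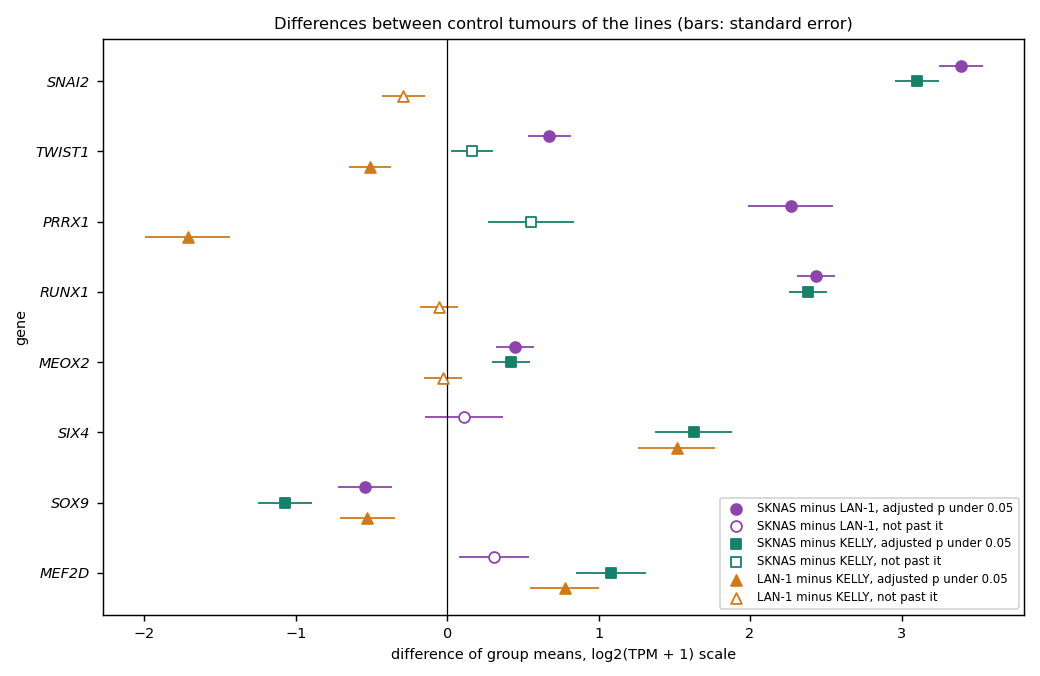
Differences between the control tumours of the lines on the log2(TPM + 1) scale for the 8 genes tested, with bars for the standard error and filled symbols for an adjusted p under 0.05. SNAI2 and RUNX1 lie at 3.39 and 2.43 for SKNAS minus LAN-1, and SOX9 is the gene that lies below 0 in all 3 comparisons.

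In the order of the 6 group means, many neighbours overlapped. SOX9 ran from KELLY Hmx1 over KELLY control, LAN-1 control, SKNAS control and LAN-1 Hmx1 to SKNAS Hmx1 at 6.23 TPM, and the pairs KELLY Hmx1 and KELLY control, and LAN-1 Hmx1 with SKNAS control, overlapped. SIX4 in SKNAS Hmx1 tumours (1.89 TPM) overlapped both KELLY arms (1.43 TPM in Hmx1 and 1.90 TPM in control), while SKNAS control tumours overlapped LAN-1 control tumours. TWIST1 in SKNAS Hmx1 tumours (44.1 TPM) lay between KELLY control (55.0 TPM), whose libraries it overlapped, and LAN-1 control (37.9 TPM), whose libraries it did not. For MEF2D every pair of neighbours overlapped.

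Other genes of the same families and pathways were described by lists, chosen with earlier results of these data known. Of 14 paralogues tested in SKNAS, 2 rose and 1 fell, with a median of -0.04 beside 0.00 for all genes. This and the SKNAS counts of the other lists are to be read against the 8.76% of all genes called in SKNAS. RUNX3, the runt factor of lymphoid cells, averaged 8.05 ± 0.45 TPM in SKNAS Hmx1 and 16.1 ± 1.87 TPM in SKNAS control tumours, a log2 change of -0.92 ± 0.17 (SE; limma adjusted p = 0.00139). MEOX1, the close relative of MEOX2, averaged 1.74 ± 0.407 TPM in SKNAS Hmx1 and 0.727 ± 0.322 TPM in SKNAS control tumours, a change of 0.67 ± 0.14 (SE; limma adjusted p = 0.00386). SIX2, a homeobox factor of kidney progenitors, changed by 1.13 ± 0.23 (SE; limma adjusted p = 0.00373), to 2.85 ± 0.671 TPM in SKNAS Hmx1, against 0.764 ± 0.300 TPM in SKNAS control tumours. RUNX3 moved the same way as RUNX1, and SIX2 the opposite way to SIX4. MEOX1 was listed at 0 in LAN-1 and averaged 0.0144 TPM in KELLY Hmx1 and 0.0437 TPM in KELLY control tumours. It therefore reached the minimum largely through the SKNAS Hmx1 libraries, and MEOX2 did so through them alone. The shared direction of MEOX1 and MEOX2 was thus largely set by that minimum and supports nothing. All SDs are of 3 libraries.

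Of 22 tested partners and inhibitors of these factors, none was called by limma in SKNAS, 2 had an unadjusted p under 0.05, and the median was -0.13. EYA2, a coactivator of SIX4 and its relatives, was the 1 partner of the 22 called in LAN-1, where 0.45% of all genes were called. It averaged 0.224 ± 0.0703 TPM in LAN-1 Hmx1 and 4.46 ± 1.69 TPM in LAN-1 control tumours (SD, n = 3 each), a log2 change of -2.11 ± 0.27 (SE; limma adjusted p = 0.000922). CBFB, the obligate partner of RUNX1, averaged 55.5 ± 7.44 TPM in SKNAS Hmx1 and 77.5 ± 13.6 TPM in SKNAS control tumours and was not called. TCF4, which encodes an E protein that pairs with TWIST1, averaged 217 TPM in SKNAS control, 35.2 TPM in LAN-1 control and 30.4 TPM in KELLY control tumours.

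Of 23 other mesenchymal transcription factors tested in SKNAS, 1 rose and 2 fell, with a median of 0.06. FOXC1, a forkhead factor of mesenchyme, rose by 1.31 ± 0.26 on the log2 scale (SE; limma adjusted p = 0.00256), NOTCH2 had a change of -1.23 ± 0.15 (SE; limma adjusted p = 2.25e-05) and IRF2 one of -0.75 ± 0.20 (SE; limma adjusted p = 0.0216). Of 15 other neural crest factors 4 rose, ZIC2 among them, and 3 fell, with a median of 0.03. MYC averaged 4.25 ± 0.236 TPM in SKNAS Hmx1 and 20.6 ± 7.33 TPM in SKNAS control tumours, LMO4 18.8 ± 5.05 and 69.0 ± 6.88 TPM, and HES1 5.63 ± 1.38 and 13.2 ± 1.39 TPM in the same arms, and all 3 fell (SD, n = 3 each). ZIC2 averaged 1.201 ± 0.28 TPM in SKNAS Hmx1 tumours, was listed at 0 in SKNAS control tumours and was called higher. It stayed at or below 0.0758 TPM in LAN-1 and KELLY libraries and reached the minimum through the 3 SKNAS Hmx1 libraries alone, so that it had to differ. In LAN-1 the related ZIC1 rose by 1.03 ± 0.16 on the log2 scale (SE; limma adjusted p = 0.00319).

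Of 26 mesenchymal effector genes tested in SKNAS, 3 rose and 2 fell, with a median of -0.40, and 21 did not pass. ANXA2 averaged 153 ± 12.6 TPM in SKNAS Hmx1 and 288 ± 38.5 TPM in SKNAS control tumours, and the matrix gene TNC 4.06 ± 0.898 and 10.3 ± 3.31 TPM (SD, n = 3 each), and both fell. TGFBI and CCN2, targets of TGF-beta and of YAP, rose by 1.04 and 0.93 on the log2 scale, at low levels. TGFBI averaged 2.20 ± 0.601 TPM in SKNAS Hmx1 and 0.621 ± 0.689 TPM in SKNAS control tumours, and CCN2 2.17 ± 0.577 and 0.691 ± 0.502 TPM. Both control means lay under the minimum of 1 TPM. The SKNAS Hmx1 libraries thus helped to bring both genes into the test, and that minimum may have set part of their direction. VIM, the intermediate filament of mesenchymal cells, averaged 427 ± 20.9 TPM in SKNAS Hmx1 and 627 ± 36.8 TPM in SKNAS control tumours and missed the threshold (limma adjusted p = 0.0535). Between control tumours of SKNAS and LAN-1, 21 of the 26 were higher and 2 lower in SKNAS. Of all genes, 52% were called in that comparison, 31.5% higher and 20.5% lower. The list median was 2.20 beside 0.18 for all genes. This list shares COL1A1 and COL3A1 with the fibroblast markers. Of 17 noradrenergic factors tested in SKNAS none rose and 2 fell, among them TFAP2B with a change of -2.27 ± 0.23 (SE; limma adjusted p = 2.29e-06). In KELLY the 6 lists had the same 14, 22, 23, 15, 26 and 17 genes tested, of which limma called 0, where 0.0912% of all genes were called, and 13 had an unadjusted p under 0.05.

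**Figure D5:**
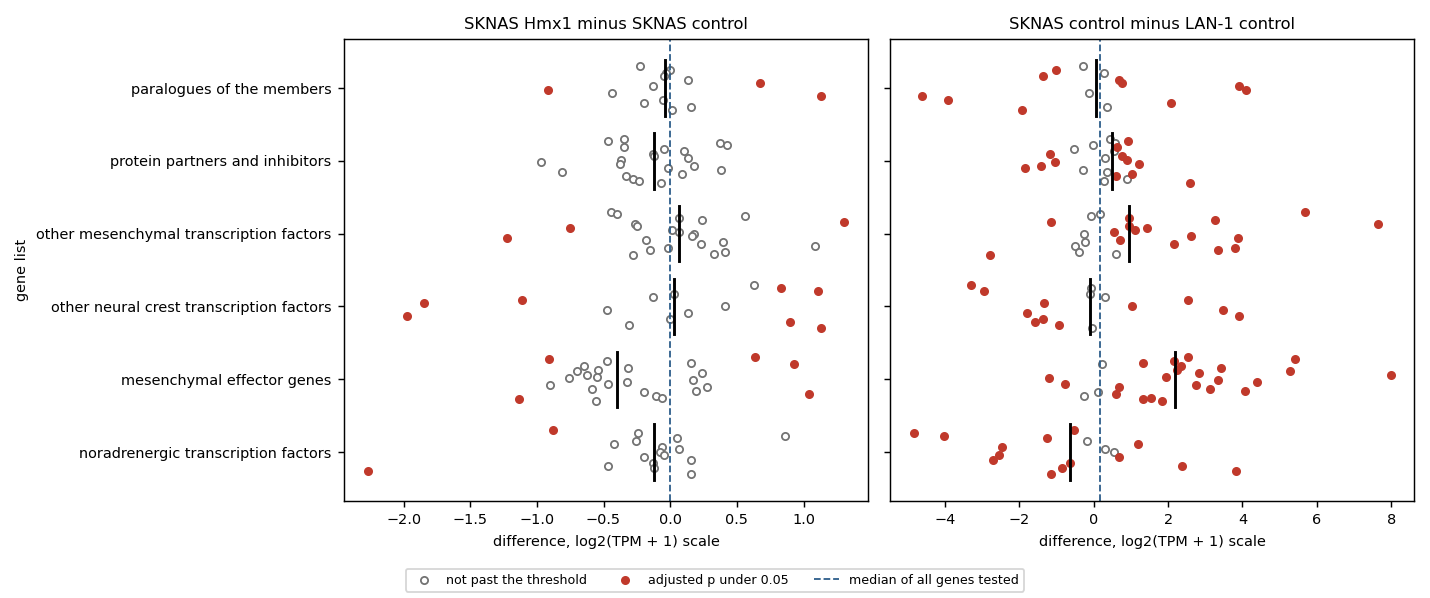
Log2 differences of the genes of 6 lists in SKNAS Hmx1 minus SKNAS control (left) and SKNAS control minus LAN-1 control (right), with filled points for an adjusted p under 0.05, black bars for list medians and a dashed line for the median of all genes tested. The effector genes have a median of -0.40 on the left and 2.20 on the right.

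Genes nearest in level pattern were found by the root mean square difference of log2(TPM + 1), centred per gene, over the 18 libraries. SNAI2 was nearest to IFI44L (0.139), then TGM2 and CADPS2. RUNX1 was nearest to ETNPPL (0.0931), then IFIT3 and MOCOS. MEOX2 was nearest to LINC02965 (0.108), SIX4 to ENSG00000235609 (0.287), with DEPDC7 (0.292) the nearest with a gene name, SOX9 to FAM43A (0.284), PRRX1 to TPM2 (0.303), TWIST1 to CYSTM1 (0.144) and MEF2D to WDTC1 (0.0862). IFI44L averaged 4.59 TPM in SKNAS Hmx1 and 9.85 TPM in SKNAS control tumours, beside 4.26 and 9.53 TPM for SNAI2. These libraries share line and arm, so the likeness is a description.

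In GRCh37 coordinates, SNAI2 (ENSG00000019549) lies on chromosome 8 from 49830249 to 49834299, TWIST1 (ENSG00000122691) on chromosome 7 from 19060614 to 19157295, PRRX1 (ENSG00000116132) on chromosome 1 from 170631869 to 170708560 and RUNX1 (ENSG00000159216) on chromosome 21 from 36160098 to 37376965. MEOX2 (ENSG00000106511) lies on chromosome 7 from 15650837 to 15726437, SIX4 (ENSG00000100625) on chromosome 14 from 61176246 to 61191066 and SOX9 (ENSG00000125398) on chromosome 17 from 70117161 to 70122561. FOSL1 (ENSG00000175592) lies on chromosome 11 from 65659520 to 65668044 and MEF2D (ENSG00000116604) on chromosome 1 from 156433519 to 156470620. SOX9 overlaps SOX9-AS1 on the opposite strand, which reached at most 3.45 TPM, and reads of such pairs may not have been told apart since the use of strand was not given in the sources used here. Neighbours of the 9 genes were added after the values were seen. MNAT1, 10.4 kb from SIX4, changed by 0.06 ± 0.17 in SKNAS (SE; limma adjusted p = 0.942). AGMO, 49.2 kb from MEOX2, changed by -0.01 ± 0.11 in SKNAS (SE; limma adjusted p = 0.991).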

How the data were processed

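RNA of 18 xenograft tumours was measured as gene tables, 1 per library. Per the labels' protocols, a stranded poly(A) kit and read pairs of 125 bp in 2 lanes were used. Per the submitters' processing notes, bcl2fastq, STAR and FastQC were run, and the builds GRCh37 and GRCh38.p12 appear, neither tied to a step. Table maker, strand setting and any removal of mouse reads were not given in the sources used here. TPM, summing to 1000000 per library, FPKM and a coverage signal are deposited columns per the file headers. TPM keeps no depth, so no counting interval is given. The last gene of chromosome 1 ends at 249231242, beyond 248937099 in RefSeq GRCh38, so coordinates were read as GRCh37. Symbols came from a name table (52181 of 63677 identifiers matched).

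limma 3.58.1 (R 4.3.3) was fitted to log2(TPM + 1) of 18650 genes from the 18 libraries, with a mean for each of 6 groups and a trended variance prior (12 residual and 4.95 prior degrees of freedom). This scale understates changes of low genes. The fit was tested on simulated data. Groups came from the titles, and replicate numbers from accession order. All 9 genes were named. Of each pathway list at most the 4 called genes with the greatest change per comparison and, for each tested gene, the 3 nearest in pattern could be named. CBFB, VIM, MYCN, several markers of other cell types and the genomic neighbours were named after their values were seen. The members and lists were chosen with earlier results of these data known. Alternatives were another pseudocount, no filter, FPKM, coverage, other scalings, no trend, groups fitted alone, no mitochondrial genes and each library left out. Some genes of the lists and of the neighbourhoods are not reported here.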

Additional observations from a re-analysis of the deposited data

Results flagged for a closer look

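The arm difference of some of the 9 genes differed between lines by a test of that difference in limma. SKNAS minus LAN-1 was -0.997 for SNAI2, -0.76 for RUNX1 and 1.09 for MEOX2 on the log2(TPM + 1) scale. SKNAS minus KELLY was -0.92 for SNAI2, -0.68 for RUNX1, 1.07 for MEOX2, -1.36 for SIX4 and -0.99 for SOX9. SNAI2 and RUNX1 were near 0 TPM in both other lines in either arm. MEOX2 was near 0 TPM there too, and was tested only because the 3 SKNAS Hmx1 libraries reached the minimum, so that its direction was set by that minimum. For SIX4 the adjusted p against KELLY ranged from 0.00241 to 0.0977 over the alternatives, for SOX9 from 0.0147 to 0.0866 and for RUNX1 from 0.00552 to 0.785. The call was lost in 11, 6 and 7 of 26 alternatives for SIX4, SOX9 and RUNX1 in that order.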

How the results depend on the processing

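No paired analysis was possible because replicate numbers follow the order of accessions and the labels match no library with another. In SKNAS, the called members numbered 6, and 4 to 6 over the alternatives, and SIX4 and MEOX2 kept their calls in each one fitted. For MEOX2 this supports nothing, since it reached the minimum through the SKNAS Hmx1 libraries alone, and the counts include it. FPKM could not be fitted for MEOX2, which fell under the minimum. Without KELLY control library 1, and with coverage in place of TPM, 1 member was called in LAN-1 (SOX9), otherwise 0, and KELLY had 0 throughout. With a pseudocount of 0.1, 3 members were called for the mean over lines, 1 for SKNAS minus LAN-1 and 2 for SKNAS minus KELLY, in place of 5, 3 and 5. Groups fitted alone left 2 calls for LAN-1 minus KELLY controls. Leaving out each library in turn gave 3 to 5 calls for the mean over lines, 2 to 5 for SKNAS minus KELLY and 0 to 1 for LAN-1.

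In the exact permutation test, whose alternatives other than the pseudocount, like coverage, were added after seeing the data, SNAI2 changed to -0.44 with a pseudocount of 0.1 (p = 0.1), and TWIST1 to -0.18 without mitochondrial genes (p = 0.042). Leaving out libraries moved SNAI2 between -0.39 and -0.31 (exact p = 0.025 to 0.085) and TWIST1 between -0.18 and -0.095 (exact p = 0.0235 to 0.362). The TWIST1 difference between SKNAS and KELLY controls reversed to -0.47 under median-ratio scaling and -0.43 under quantile normalization. The cause of these changes was not tested. All genes called numbered 84 in LAN-1, with 27 to 169 over the alternatives, and 17 in KELLY, with 0 to 49. Those whose arm difference differed numbered 904 for SKNAS minus KELLY, with 689 to 1399, and 39 for LAN-1 minus KELLY, with 17 to 81. Of calls between control tumours, 60.5% were higher in SKNAS than LAN-1 (49.6% to 69.3%), 75.4% in SKNAS than KELLY (51.3% to 78.6%) and 73.8% in LAN-1 than KELLY (50.02% to 78.9%). With unknown depth, no limit can be put on the genes listed at 0.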
